A study of Mus musculus with 151 samples.

Results

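The 9 genes of the bone morphogenetic protein (BMP) pathway described here were measured in single inner hair cells (IHCs) of the mouse cochlea and in the outer hair cell-like cells induced from them (iOHCs): the ligands *Bmp3*, *Bmp4* and *Bmp7*, the receptors *Bmpr1a* and *Bmpr2*, and the target genes *Id1*, *Id2*, *Id3* and *Id4*. They are 9 of the 55291 genes counted. *Bmp3* was chosen by its measured level, near 0 in IHCs and high in iOHCs, so its difference between these groups is a description and supports nothing here. The other members were taken by name as ligands, receptors and targets of the same pathway, with earlier results of these data known.

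BMPs are secreted ligands of the TGF-beta superfamily. A ligand dimer brings together type I receptors such as Bmpr1a and type II receptors such as Bmpr2, the type I receptor phosphorylates Smad1, Smad5 and Smad9, and these enter the nucleus with Smad4. The Id genes are the best known direct targets. Id proteins carry a helix-loop-helix domain but no DNA-binding region, and by pairing with E proteins they keep these from basic helix-loop-helix factors such as Atoh1, which hair cells need to form. Bmp3 is an unusual member of the ligand family, known mainly as an antagonist of other BMPs that binds the type II receptor Acvr2b.

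The data were 50 P30_WT IHCs, 55 P14_WT IHCs and 46 P14_iOHCs, each sequenced as a separate Smart-seq library. The wild-type IHCs came from C57BL/6 mice of the genotype vGlut3-P2A-iCreER/+; Ai9/+ at postnatal day 30 or 14, and the iOHCs from vGlut3-P2A-iCreER/+; Tbx2 flox/-; Ai9/+ mice at postnatal day 14. All groups therefore carried the tamoxifen-inducible Cre in the *Slc17a8* (vGlut3) locus, which is active in IHCs, and the Ai9 Tdtomato reporter, and all were given tamoxifen in the days after birth. The iOHC mice also lacked 1 *Tbx2* allele in every cell from conception, so that the control mice differ from them in this too. Tdtomato+ cells were picked by hand, and iOHCs were recognised by their smaller size. The labels name no mouse, so each group counts as 1 sample of cells. No test between groups was possible, and the SD, range and quartiles given are spreads between cells.

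*Tbx2*, the deleted gene, had 260 ± 127 counts per 1000000 counts of a cell (CPM; SD, n = 55 cells) in P14_WT IHCs, 69.3 ± 87.4 (n = 46) in P14_iOHCs and 193 ± 103 (n = 50) in P30_WT IHCs. Its lowest, median and highest CPM were 49.5, 240 and 754 in P14_WT IHCs and 0, 41.4 and 427 in P14_iOHCs, so the groups overlapped. A count over the whole gene also takes in exons outside the deleted part and does not show for a single cell that the deletion took place. *Slc26a5*, the outer hair cell motor protein prestin, was counted in all 46 iOHCs, at 1146 ± 685 CPM, and in 2 of 55 P14_WT IHCs. *Slc17a8*, the vesicular glutamate transporter of IHCs, was at 123 ± 194 CPM in iOHCs and at 1230 ± 317 in P14_WT IHCs. The total count was 4326416 to 25035444 per cell, with 51 cells at up to 10267217 and 100 cells from 11814928 upwards. Both ranges held cells of every group. Of 16 supporting cell markers, 14 passed the filter on low values described next, 8 were over 4-fold higher in iOHCs and 1, *Cdh4*, was over 4-fold lower. Over all genes past the filter 6.62% were over 4-fold higher and 2.9% over 4-fold lower. *Prox1* had no count in either P14 group. Of 5 fibroblast markers past the filter 2 were over 4-fold higher, of 3 immune cell markers 1 was over 4-fold lower, and no marker of glia, neurons or blood was over 4-fold different. The summed CPM of the 16 markers ranged from 0 to 2167 with a median of 34.5 in P14_WT IHCs, from 0 to 10658 with a median of 904 in P14_iOHCs, and from 0 to 825 with a median of 40.4 in P30_WT IHCs. Of the 46 iOHCs, 16 had a higher sum than every P14_WT IHC and 7 had a sum no higher than the P14_WT IHC median. Values in these 7 cells are given beside the results below, and their ratios are to all 55 P14_WT IHCs. The total counts of the 7 cells were 6059570 to 16366320, and P14_iOHC-2, P14_iOHC-4, P14_iOHC-12 and P14_iOHC-15 were of lower depth. The 7 cells had 6508 to 9227 genes with a count. The means were 9009 ± 1742 in all iOHCs and 8754 ± 543 in P14_WT IHCs. How far depth and the number of detected genes enter the values of the 7 cells was not tested. With these 7 cells the median log2 ratio over 14833 genes past the filter was -0.28, against 0.09 with all iOHCs. Of these genes 987 were over 4-fold higher and 2161 over 4-fold lower.

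Groups were compared by the log2 ratio of mean CPM with 1 CPM added to both means, for genes whose mean reached 1 CPM in either group. A gene is called higher or lower where this ratio exceeds 4-fold, the fold used in the study, and the added 1 CPM understates the ratio of low genes. On this scale 2 members, *Bmp3* and *Id2*, were over 4-fold higher in P14_iOHCs than in P14_WT IHCs and 0 were over 4-fold lower. Among all 15956 genes past the filter, 6.62% were over 4-fold higher and 2.9% over 4-fold lower. *Bmp3* entered the filter only through the iOHCs and had to differ. *Bmp4* stayed below the filter. The log2 ratios of the other 7 members ran from 0.41 for *Bmp7* to 2.86 for *Id2*, with *Id3* in the middle at 0.95, where the median over all genes was 0.09. The plot of single cells shows that only *Bmp3* came close to separating the groups.

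**Figure D1:**
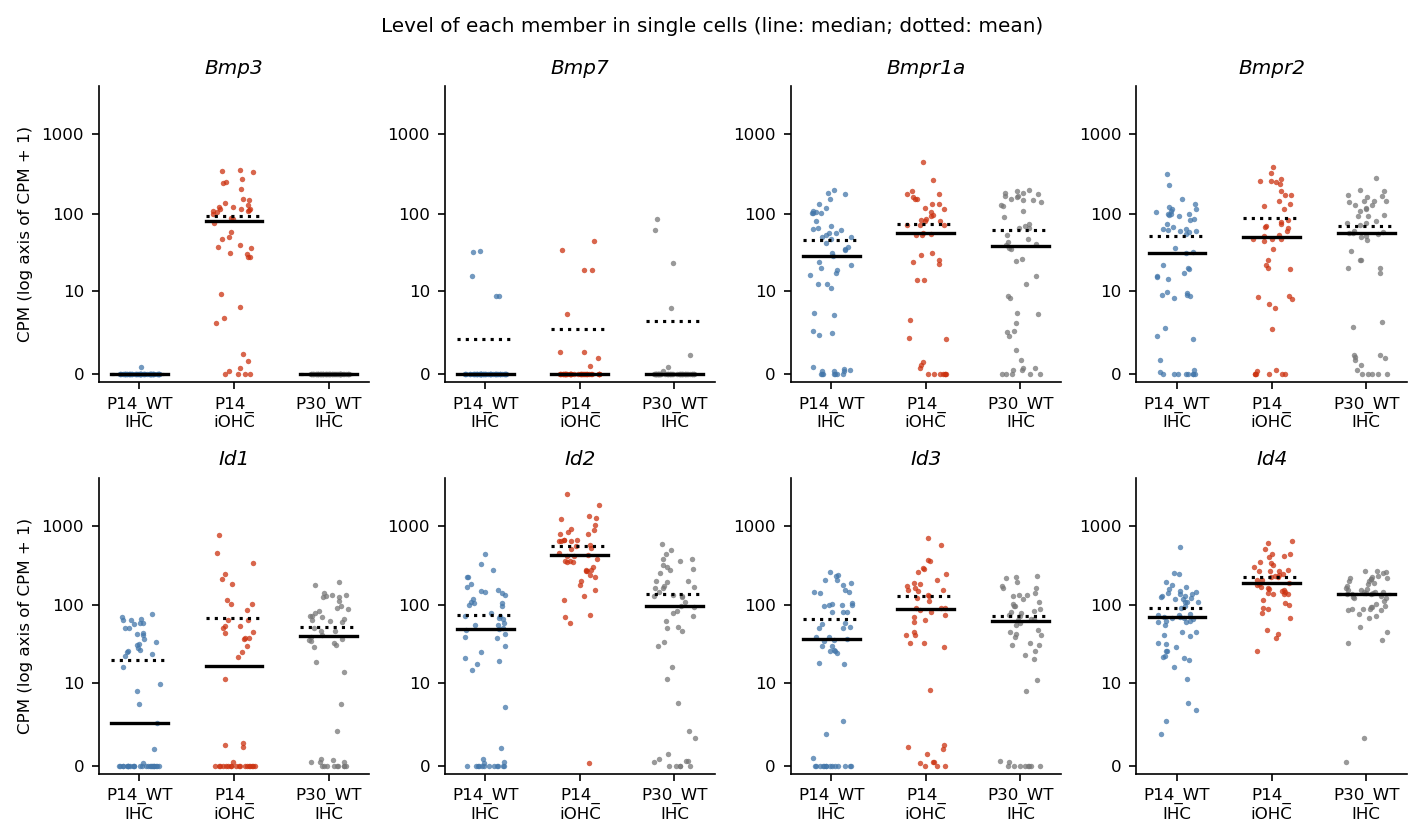
Level of each member in single cells of P14_WT IHCs (55 cells), P14_iOHCs (46 cells) and P30_WT IHCs (50 cells). Each point is 1 cell, the y axis is CPM on a log axis of CPM + 1, the line is the median and the dotted line the mean. *Bmp3* lay at 0 in all IHCs but 1, *Id2* was counted in every iOHC, and the receptors and *Id4* overlapped widely between groups. *Bmp4* had a single count in all cells and is left out.

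*Bmp3* (chr5:98854415-98884396, plus strand, GRCm38) had 4 counts in 1 of 55 P14_WT IHCs and none in the other 54. In P14_iOHCs it had 66591 counts in 42 of 46 cells, or 91.3% of cells (exact 95% binomial interval 79.2 to 97.6%). In P30_WT IHCs it was found in 0 of 50 cells, which allows a share of up to 6% of cells when 3 cells of the total are taken as the limit of a count of 0, the limit used for every 0 below. The interval on the share and the limit of a 0 treat the cells as independent draws and do not cover differences between mice. The libraries had no molecular identifiers, so reads copied from 1 molecule count more than once. An interval on summed counts therefore understates the counting error. The CPM over iOHCs was 0 at the lowest, 81.4 at the median and 353 at the highest, with quartiles of 13.8 and 123 and a mean of 95.2 ± 97.7 (SD, n = 46 cells). The P14_WT IHC mean was 0.00402 ± 0.0298 CPM (n = 55). Of the 46 iOHCs, 40 lay above the highest IHC. The log2 ratio of means was 6.58, and the ratio of summed counts per summed total was 18577. Its interval, with every read taken as independent, was 7255 to 68182, wide because the denominator is 4 counts of 1 cell.

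The 4 iOHCs without a *Bmp3* count did not lack the outer hair cell gene *Slc26a5*, which was at 304 to 1377 CPM in them. One of these, P14_iOHC-18, had 264 CPM of *Tbx2*, 935 CPM of *Slc17a8* and no *Ikzf2*, an outer hair cell transcription factor. The others had 9.44, 1.11 and 37.8 CPM of *Tbx2* and 129 to 414 CPM of *Ikzf2*. Among the 4, only P14_iOHC-18 had a high *Tbx2* level, and whether *Bmp3* depends on *Tbx2* was not tested. P14_iOHC-11 and P14_iOHC-18 were also of lower depth, with total counts of 7518333 and 9083541. In the 7 iOHCs with the fewest supporting cell marker counts *Bmp3* was present in every cell, at 5.93, 136 and 350 CPM (lowest, median, highest). Its mean was 123 ± 112 CPM in the 23 iOHCs with the lower marker sums and 67.1 ± 73.1 in the 23 with the higher sums. Cells of lower and of higher depth gave means of 107 ± 123 (n = 12) and 91.0 ± 89.2 (n = 34).

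By rank correlation over all cells of the 3 groups, the genes most like *Bmp3* among 8511 genes counted in at least 50% of iOHCs were *Hsd11b1* (rho = 0.92), *Lrrc30* (0.89), *Slc26a5* (0.88), *Ikzf2* (0.88) and *4930558C23Rik* (0.86). *Bmp3* was chosen for its difference between iOHCs and IHCs, so this ranking had to bring up genes with the same difference. The 5 genes separate iOHCs from IHCs: *Hsd11b1*, which regenerates active glucocorticoid, was at 472 ± 423 CPM in iOHCs and had no count in P14_WT IHCs. Within the 46 iOHCs the closest genes were *Rtn2* (0.54), *Zfp637* (0.51), *Sptb* (0.51), *Minar2* (0.51) and *Adap1* (0.49). They are the highest among 8511 genes over 46 cells, and how high unrelated genes would reach was not tested. None of these 5 was over 4-fold different between the P14 groups, and *Minar2* was at 784 ± 304 CPM in P14_WT IHCs and 680 ± 359 in iOHCs. Within iOHCs *Bmp3* had a rho of 0.21 with *Slc26a5*, -0.23 with *Tbx2*, -0.37 with the summed supporting cell markers and 0.03 with the total count. The cells share library preparation and an unknown number of mice, and these coefficients are descriptions.

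The other ligands were sparse. *Bmp4* (chr14:46383520-46390669, minus strand), which patterns the early otocyst, had 0 counts in all 55 P14_WT IHCs and all 46 iOHCs, which allows shares of up to 5.45% and 6.52% of cells, and 1 count in 1 of 50 P30_WT IHCs. *Bmp7* (chr2:172868012-172940321, minus strand), a broadly expressed ligand, was found in 5 P14_WT IHCs, 9 iOHCs and 7 P30_WT IHCs. Its median was 0 in all 3 groups and its highest cell had 33.7, 45 and 85.3 CPM. The log2 ratio of 0.41 between iOHCs and P14_WT IHCs came to -0.01 without the highest iOHC, and none of the 7 iOHCs with the lowest marker sums had a *Bmp7* count.

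Of the 15 BMP ligands listed, 5 passed the filter at P14, 2 were over 4-fold higher in iOHCs and 1 was over 4-fold lower, against 6.62% and 2.9% of all genes. One of the higher ligands is *Bmp3*, which was chosen for this difference, and *Gdf6* too passed the filter only through the iOHCs. *Gdf6*, a ligand of joints and retina, had no count in P14_WT IHCs and a mean of 9.17 ± 39.5 CPM in iOHCs. Its summed count over the summed total of iOHCs, 12.1 CPM, was at least 3183-fold higher than a floor of 3 counts over the P14_WT IHC group. It was found in 7 iOHCs, 1 of which held 61.2% of the mean, and all 7 were among the 23 cells with the higher marker sums. *Bmp8b*, known from germ cells and brown fat, was the ligand over 4-fold lower, at 11.4 ± 21.5 CPM in 24 of 55 P14_WT IHCs and 1.17 ± 6.00 in 2 of 46 iOHCs (log2 ratio -2.51). Its ratio was 0 by medians over cells and -1.49 by the difference of mean log2(CPM + 1), short of 4-fold, and past 4-fold under the other 10 of 12 alternatives. Its exons share 339 bases with *Gm17244* and 133 with *Ppie*, and since the strand setting of the counting is not given, reads of these genes may be counted in it. *Bmp6*, a ligand best known for controlling hepcidin, was at 4.33 ± 14.3 CPM in 6 P14_WT IHCs and 16 ± 30.7 in 18 iOHCs. In the 7 iOHCs with the lowest marker sums it was at 0.0303 CPM. Per length of transcript, the mean level in iOHCs was 28.2 ± 28.8 transcripts per 1000000 transcripts (TPM; SD, n = 46) for *Bmp3*, 9.29 for *Bmp6*, 5.74 for *Gdf6*, 1.48 for *Bmp7* and 0.714 for *Bmp8b*. In P14_WT IHCs the order of mean TPM was *Bmp8b* (7.23), *Bmp6* (2.76) and *Bmp7* (1.15), and *Bmp3* was at 0.00134 TPM.

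Among the 18 other ligands of the TGF-beta family 6 passed the filter and none was over 4-fold different. *Tgfb2* was at 16.7 ± 31 CPM in P14_WT IHCs and 60.02 ± 88.8 in iOHCs (log2 ratio 1.78). *Inha*, the alpha subunit of inhibin, was at 33.8 ± 40.3 and 10.7 ± 20.4 CPM (log2 ratio -1.58), and *Tgfb3* at 6.91 ± 17.7 and 8.54 ± 23.1.

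Both receptor members were counted in most cells of all groups. *Bmpr1a* (chr14:34410734-34503341, minus strand), a type I receptor, ran from 0 to 197 CPM with a median of 29.2 in P14_WT IHCs, from 0 to 454 with a median of 56.6 in iOHCs and from 0 to 199 with a median of 38.7 in P30_WT IHCs. Its means were 46.2 ± 52.7, 75.6 ± 87.0 and 63.4 ± 68.5 CPM. *Bmpr2* (chr1:59763400-59879014, plus strand), the type II receptor of most BMPs, ran from 0 to 322 with a median of 31.6, from 0 to 391 with a median of 50.6 and from 0 to 283 with a median of 57.0 in the same order, with means of 53.2 ± 62.6, 87.6 ± 101 and 71.2 ± 68.0 CPM. The log2 ratios of iOHCs to P14_WT IHCs were 0.70 and 0.71, smaller than the spread between cells, and 2 of 46 iOHCs lay above the highest IHC for each gene. The *Bmpr2* ratio was -0.16 among cells of lower depth and 1.20 among cells of higher depth. Both receptor mRNAs were found together in 42 of 55 P14_WT IHCs, 34 of 46 iOHCs and 41 of 50 P30_WT IHCs, and 31 iOHCs had *Bmp3* as well. *Bmpr1a* shares 290 exon bases with the antisense gene *Gm17110*, and *Bmp4*, *Bmp6*, *Tgfb2*, *Tgfb3*, *Acvr1c* and *Acvr2a* also overlap exons of a gene on the other strand.

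Of 12 receptors 9 passed the filter and 1 was over 4-fold higher in iOHCs, against 6.62% of all genes. *Acvr1c*, a type I receptor of nodal and activins, had no count in P14_WT IHCs and 3.14 ± 17.3 CPM in iOHCs, and 79.8% of that mean lay in 1 cell. Without this cell the mean was 0.649 CPM and the log2 ratio 0.72. *Acvr2a*, a type II receptor, was at 31.9 ± 36.8 CPM in P14_WT IHCs and 41.9 ± 50.2 in iOHCs. *Acvr2b*, named for its known binding of Bmp3 after its values were seen, was found in 40 of 55 P14_WT IHCs at 19.4 ± 26 CPM and in 17 of 46 iOHCs at 11 ± 26.8 (log2 ratio -0.76). Of 6 co-receptors 4 passed the filter. *Rgmb*, a BMP co-receptor, was over 4-fold higher at 0.524 ± 3.41 and 5.72 ± 15.1 CPM, but its log2 ratio of 2.14 came to 1.68 without the highest iOHC. It was at 0.401 CPM in the 23 iOHCs with the lower marker sums. *Neo1*, a receptor of the Rgm proteins, was at 19.3 ± 24.8 and 17.7 ± 25.1 CPM, and *Tgfbr3* was at 0.398 ± 2.39 and 3.15 ± 14.5.

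None of the Smad genes that carry the signal was over 4-fold different. Of the 5 that passed the filter 4 had a lower mean in iOHCs. Over all 15956 genes past the filter 8696 had a higher mean in iOHCs. *Smad1*, which BMP receptors phosphorylate, was at 26.1 ± 33.3 CPM in 37 of 55 P14_WT IHCs and 11.8 ± 25.3 in 22 of 46 iOHCs (log2 ratio -1.08). *Smad4*, the common partner, was at 33.6 ± 36.6 and 46.1 ± 60.04, and *Smad2*, of the TGF-beta branch, at 30.6 ± 40.1 and 22.6 ± 41. The median log2 ratio of the list was -0.67.

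The 6 intracellular inhibitors all passed the filter, with a median log2 ratio of 1.27. Of these 1 was over 4-fold higher, against 6.62% of all genes. *Smad6*, an inhibitory Smad that BMP signalling is known to induce, was at 1.08 ± 6.57 CPM in 5 of 55 P14_WT IHCs and 15.5 ± 23.3 in 27 of 46 iOHCs (log2 ratio 2.98). It was at 0.181 CPM in the 7 iOHCs with the lowest marker sums, where 1 cell had a count. *Smurf1*, a ubiquitin ligase that targets Smads and receptors, was found in 35 of 55 P14_WT IHCs at 23.9 ± 37.5 CPM and in 44 of 46 iOHCs at 79.6 ± 98.3 (log2 ratio 1.70). In the 7 iOHCs with the lowest marker sums *Smurf1* was at 92.4 ± 92.2 CPM and had a count in all 7. *Smurf2* was at 29.1 ± 43.3 and 24.7 ± 33.6 CPM, and *Skil*, a Smad corepressor, at 14.1 ± 23.7 and 39.5 ± 56.1.

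Of 17 extracellular antagonists 9 passed the filter, with a median log2 ratio of -0.08. *Chrdl1*, a chordin-like BMP-binding protein, was over 4-fold higher, at 3.77 ± 20.9 CPM in 3 P14_WT IHCs and 28.4 ± 51.7 in 21 iOHCs (log2 ratio 2.62). None of the 7 iOHCs with the lowest marker sums had a *Chrdl1* count. *Twsg1*, which binds BMPs together with chordin, was at 82.5 ± 61.3 and 68.6 ± 69.0 CPM, and *Dand5*, an antagonist of nodal, at 28.8 ± 34.8 and 29.1 ± 41.3. *Bmper*, a secreted BMP-binding protein, was found in 40 of 55 P14_WT IHCs at 35.5 ± 54.7 CPM and in 10 of 46 iOHCs at 10.0 ± 50.4, with 72.6% of the iOHC mean in 1 cell (log2 ratio -1.73). The *Bmper* ratio was past 4-fold under 4 of 12 alternatives. It was -3.06 by medians, -2.46 by mean log2 values and -3.15 among cells of lower depth. For the 7 iOHCs with the lowest marker sums it was -5.09. Under the other alternatives it fell short of 4-fold. It was -1.43 by summed counts and -0.99 without the top quartile of cells by supporting cell markers. For the 23 iOHCs with the lower marker sums it was -0.83.

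**Figure D2:**
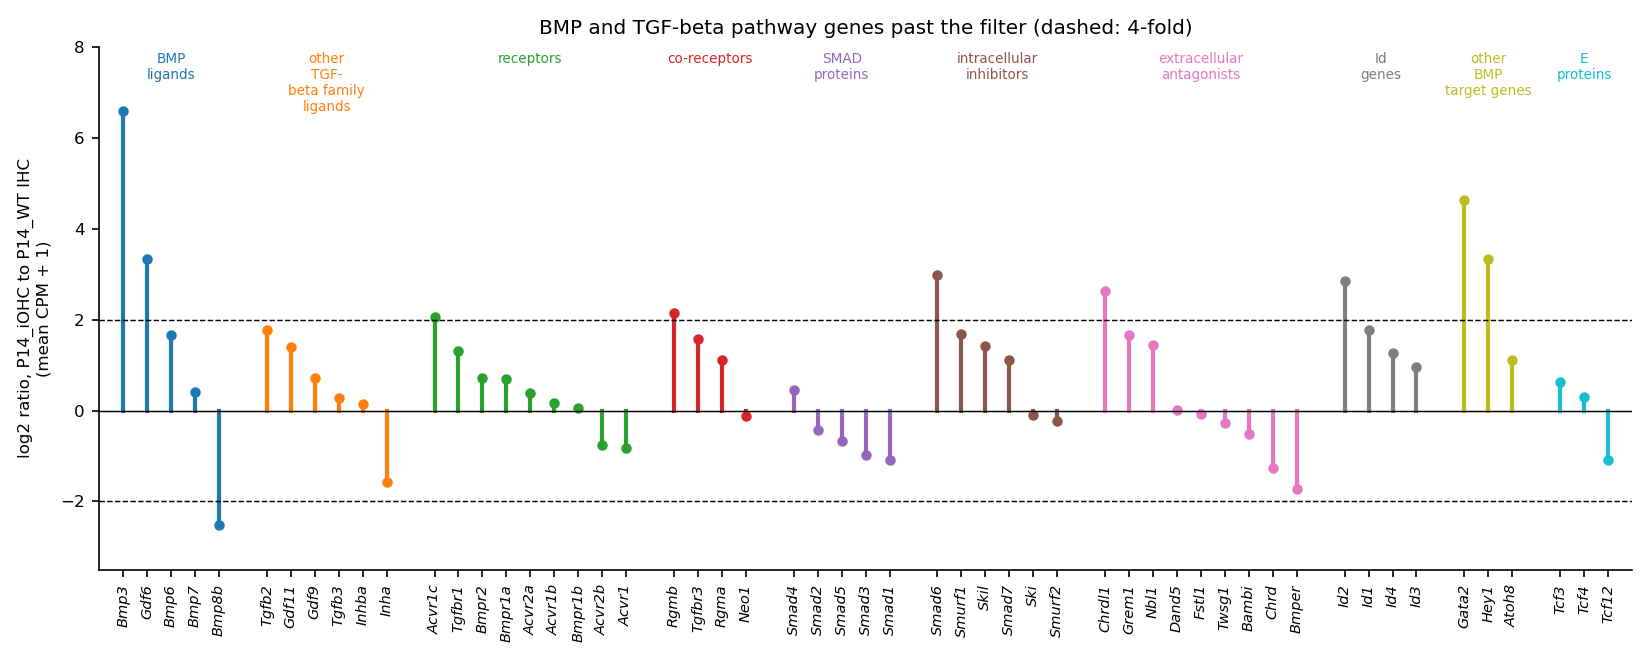
Log2 ratio of mean CPM (1 CPM added) of P14_iOHCs to P14_WT IHCs for the 54 of 95 listed pathway genes that passed the filter, by list. Each stem is 1 gene and the dashed lines mark 4-fold. *Bmp3* stands highest at 6.58, followed by *Gata2* at 4.63, and *Bmp8b* is the only stem past the lower line.

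Over all 10 lists, 54 of 95 genes passed the filter, 9 were over 4-fold higher, 1 was over 4-fold lower, and the median log2 ratio was 0.66, against 6.62%, 2.9% and 0.09 over all genes. The 9 include *Bmp3*, chosen for this difference. Without the members these were 46 genes, 7 higher, 1 lower and 0.34, as the plot of pathway ratios shows by list. Of the 7, *Gdf6*, *Acvr1c*, *Rgmb* and *Gata2* had P14_WT IHC means under 1 CPM. They passed the filter only through the iOHCs and could not come out lower. Of 12 alternatives, *Smad6* was over 4-fold higher under 10, *Hey1* and *Gata2* under 8, *Gdf6* and *Acvr1c* under 6 and *Rgmb* under 5, while *Chrdl1* was over 4-fold higher under 8 and over 4-fold lower under 1, that of the 7 iOHCs with the lowest marker sums (-2.26).

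The 4 Id genes all had higher means in iOHCs, as had 8696 of all 15956 genes past the filter. Their median log2 ratio was 1.52, against 0.09 over all genes. *Id2* alone was over 4-fold higher, against 6.62% of all genes. Every cell of the 3 groups had a count of at least 1 Id gene, and 21 of 55 P14_WT IHCs, 27 of 46 iOHCs and 30 of 50 P30_WT IHCs had counts of all 4.

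*Id2* (chr12:25093799-25097140, minus strand) was at 0, 50.7 and 447 CPM (lowest, median, highest) in P14_WT IHCs, with quartiles of 0.181 and 108. In iOHCs it was at 0.0950, 424 and 2457 CPM, with quartiles of 273 and 662. The means were 76.2 ± 92.6 (SD, n = 55 cells) and 558 ± 470 (n = 46), a log2 ratio of 2.86. *Id2* had a count in 43 of 55 P14_WT IHCs and in all 46 iOHCs. Of the 46 iOHCs, 22 lay above the highest IHC and 45 above the IHC median, so the groups overlapped. The ratio was past 4-fold under every one of 12 alternatives, from 2.02 to 4.09. In the 7 iOHCs with the lowest marker sums *Id2* was at 347 ± 204 CPM, from 74.9 to 640, and its log2 ratio to P14_WT IHCs was 2.17.

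*Id4* (chr13:48261228-48266026, plus strand) was counted in every cell of the 3 groups. It was at 1.47, 70.8 and 543 CPM in P14_WT IHCs and 26.4, 190 and 649 in iOHCs (lowest, median, highest). The means were 92.7 ± 87.0 and 226 ± 145, a log2 ratio of 1.27. Of the 46 iOHCs, 41 lay above the IHC median and 2 above the highest IHC. In the 7 iOHCs with the lowest marker sums *Id4* was at 196 ± 95.2 CPM. It shares 82 exon bases with *A330033J07Rik* and 171 with *Gm49291*, both on the other strand.

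*Id3* (chr4:136143497-136145755, plus strand) was at 0, 37.0 and 267 CPM in P14_WT IHCs and 0, 89.7 and 710 in iOHCs. The means were 66.6 ± 74.2 and 130 ± 150, a log2 ratio of 0.95. The same ratio was -1.18 for the 7 iOHCs with the lowest marker sums, in which the mean was 28.7 ± 38.3 CPM. *Id1* (chr2:152736251-152737410, plus strand) was at 0, 2.45 and 77.2 CPM in P14_WT IHCs and 0, 16.6 and 759 in iOHCs. It had a count in 30 of 55 P14_WT IHCs and 28 of 46 iOHCs, with means of 19.8 ± 24.8 and 69.9 ± 141 and a log2 ratio of 1.77, and 23.6% of the iOHC mean lay in 1 cell. By medians over cells this ratio was 2.35 and among cells of lower depth 2.77, both past 4-fold. In the 7 iOHCs with the lowest marker sums *Id1* was at 0.138 ± 0.316 CPM, with a count in 2 cells, and its ratio to P14_WT IHCs was -4.19. The median log2 ratio over all genes past the filter was -0.28 for these 7 cells. They had 6508 to 9227 genes with a count, against a mean of 8754 ± 543 in P14_WT IHCs.

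**Figure D3:**
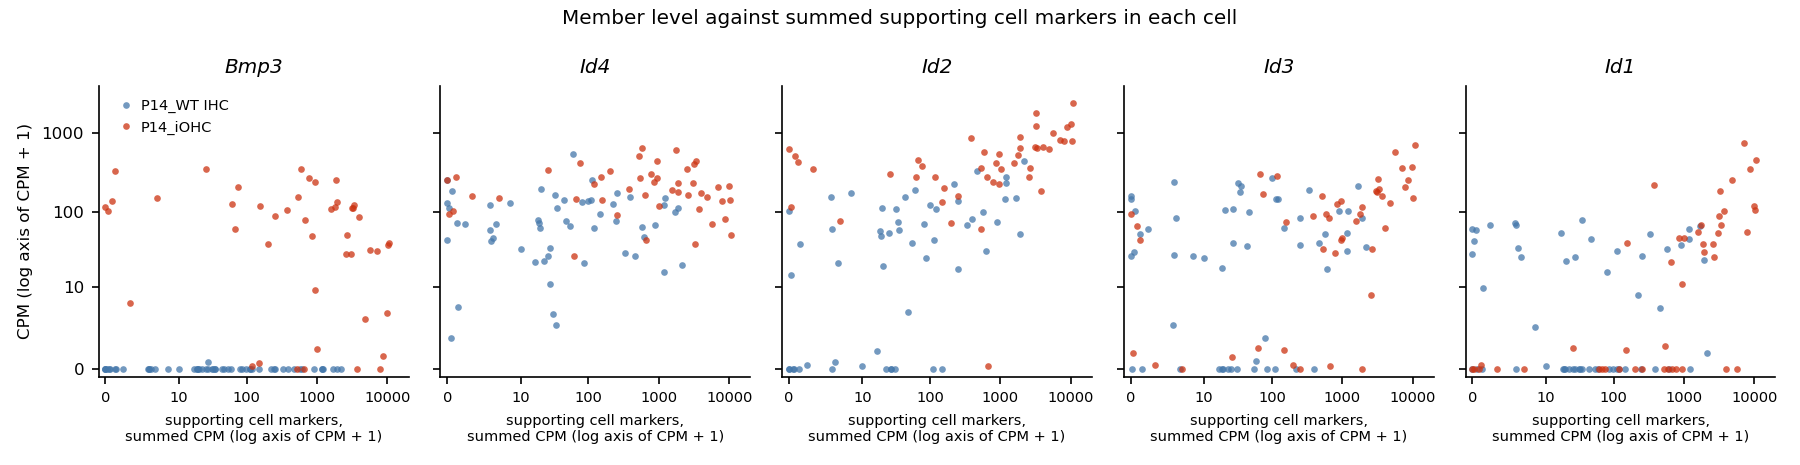
Level of *Bmp3* and the Id genes (y, CPM on a log axis of CPM + 1) against the summed CPM of 16 supporting cell markers (x, log axis of CPM + 1) in 55 P14_WT IHCs and 46 P14_iOHCs. Each point is 1 cell. *Id1* and *Id2* are highest in the iOHCs with the highest sums, *Id4* shows no such slope, and *Bmp3* is high in iOHCs from the left edge on.

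Among iOHCs the Id genes showed 2 patterns. The rank correlation with the summed supporting cell markers was 0.71 for *Id1*, 0.61 for *Id2*, 0.56 for *Id3* and -0.15 for *Id4*. The 3 genes that followed the markers also followed each other, with a rho of 0.71 between *Id2* and *Id3* and 0.58 between *Id1* and *Id2*, while *Id4* had -0.11 to -0.03 with them. The number of detected genes per cell went along too, with a rho of 0.57 for *Id1* and 0.43 for *Id2*. In P14_WT IHCs the marker sum had a rho of 0.53 with *Id2* but -0.06 with *Id1*. *Bmp3* had a rho of -0.24, -0.01, -0.30 and 0.25 with *Id1*, *Id2*, *Id3* and *Id4* in iOHCs. How much of the iOHC level of *Id1*, *Id2* and *Id3* goes with supporting cell RNA was not tested beyond these values.

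Compared per length of transcript, the mean TPM in P14_WT IHCs ran from *Id3* (90.4 ± 101) over *Id2* (75.9 ± 92.8) and *Id4* (59.0 ± 55.4) to *Id1* (41.4 ± 51.6), and neighbours in this order differed by less than their spread. In iOHCs *Id2* came first at 513 ± 442, then *Id3* at 164 ± 193, *Id1* at 138 ± 285 and *Id4* at 128 ± 79.4, and *Id3*, *Id1* and *Id4* differed by less than their spread. The 4 genes summed to 267 ± 174 TPM in P14_WT IHCs, 942 ± 792 in iOHCs and 422 ± 212 in P30_WT IHCs. *Id2* made up 28.4%, 54.4% and 31.8% of these sums. It had the most TPM of the 4 in 18 of 55, 37 of 46 and 18 of 50 cells.

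**Figure D4:**
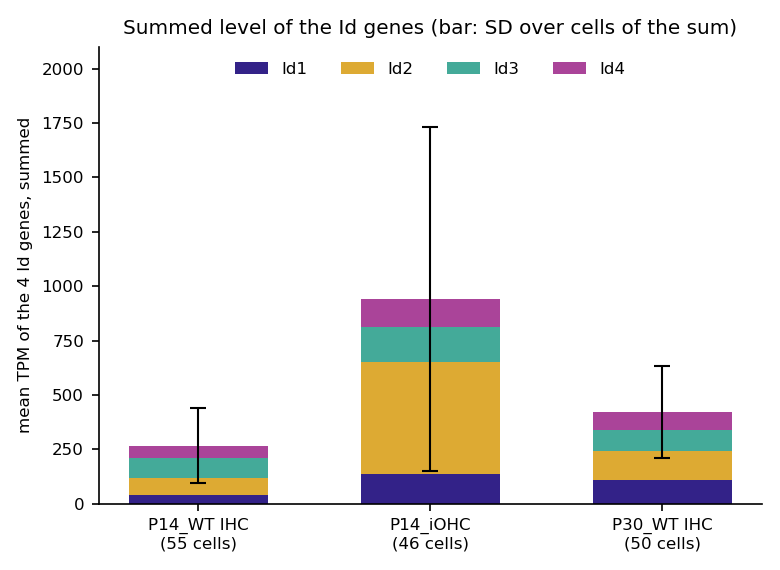
Mean TPM of *Id1*, *Id2*, *Id3* and *Id4*, stacked, in P14_WT IHCs (55 cells), P14_iOHCs (46 cells) and P30_WT IHCs (50 cells). The error bars are the SD over cells of the sum. The iOHC bar reaches 942 TPM, of which *Id2* is 54.4%.

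The sequences before the RefSeq starts of *Id2* and *Id4*, the Id genes whose means in the 7 iOHCs with the lowest marker sums stayed above the P14_WT IHC means, are shown for the BMP response element GGCGCC. The stretches are RefSeq windows of GRCm38.p6, read 5′ to 3′ on the strand of the gene, from 250 bases before the RefSeq start up to the start or to the first base of an annotated exon. The *Id2* stretch lies inside the annotated gene, in an intron of a transcript that starts further upstream, and ends directly before an exon of that transcript. Capitals mark GGCGCC and, in *Id2*, the E-box CANNTG.
Id2, chr12:25096254-25096342 (minus strand): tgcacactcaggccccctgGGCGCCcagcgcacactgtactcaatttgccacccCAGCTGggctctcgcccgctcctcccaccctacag
Id4, chr13:48260866-48261115 (plus strand): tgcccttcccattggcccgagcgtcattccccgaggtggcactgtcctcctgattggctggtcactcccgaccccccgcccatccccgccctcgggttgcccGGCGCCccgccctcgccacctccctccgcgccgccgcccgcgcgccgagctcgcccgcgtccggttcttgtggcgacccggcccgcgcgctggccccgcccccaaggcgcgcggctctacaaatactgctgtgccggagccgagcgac

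Windows were found for 6 of the 9 members. *Bmp3*, *Bmp7* and *Id1* had none and were not searched. Searched on both strands over the 250 upstream bases, GGCGCC occurred once each in *Id2*, *Id4*, *Bmpr1a* and *Bmpr2* and not in *Id3* or *Bmp4*, and it occurs in 9.59% of all 32851 promoter windows. Upstream refers to the RefSeq start. The windows of *Bmpr2* and *Id3* begin, at their far end, inside an annotated exon on the strand of the gene. Their matches may therefore be in exon sequence. Only the first 109 bases of the *Bmpr1a* window and 89 of the *Id2* window lie before such an exon. The 4 windows with it had 62.8% to 78.8% G and C. The T-box core GGTGTG occurred in *Id3* alone, against 16.3% of all windows, and its longer form AGGTGTGA, held by 1.12% of all windows, in none of the 6. The short Smad site CAGAC occurred at 2 places in *Id3*, against 42.2% of all windows, and the full site GTCTAGAC, in 0.167% of windows, in none. CANNTG, found in 66.2% of windows, occurred once in *Id2* and at 3 places in *Bmp4*. These are matches of letters and not binding sites.

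Of 8 other BMP target genes 3 passed the filter and 2 were over 4-fold higher in iOHCs, against 6.62% of all genes. *Gata2* and *Atoh8* passed the filter only through the iOHCs. *Hey1*, a Notch and BMP target of supporting cells, was at 2.50 ± 9.98 CPM in 8 P14_WT IHCs and 34.6 ± 77.5 in 17 iOHCs (log2 ratio 3.34). *Gata2*, a zinc finger factor of the otic epithelium, was at 0.519 ± 3.64 CPM in 2 P14_WT IHCs and 36.7 ± 97.3 in 20 iOHCs (log2 ratio 4.63). *Atoh8* had no count in P14_WT IHCs and 1.15 ± 5.00 CPM in 4 iOHCs. Among the 7 iOHCs with the lowest marker sums *Hey1* had no count and *Gata2* was at 0.0151 CPM in 1 cell. The rank correlation with the marker sum in iOHCs was 0.57 for both. *Hes1* and *Sox10*, which are on the marker list, were over 4-fold higher in iOHCs as well.

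**Figure D5:**
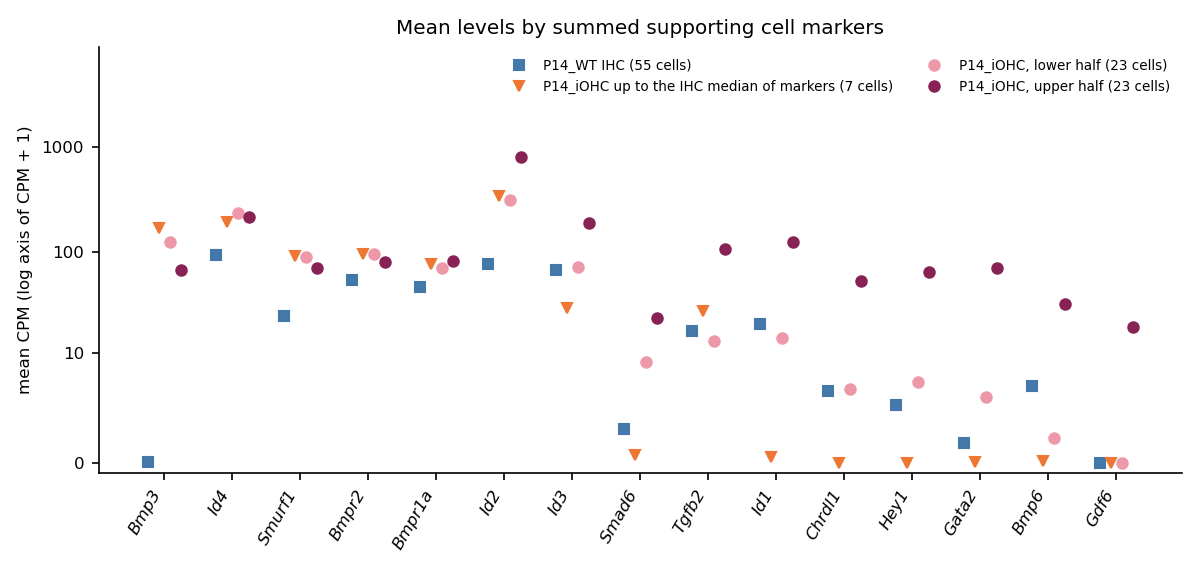
Mean CPM (log axis of CPM + 1) of pathway genes in 55 P14_WT IHCs and in P14_iOHCs split by the summed supporting cell markers: the 23 cells with the higher sums, the 23 with the lower sums, and the 7 with a sum no higher than the P14_WT IHC median. *Bmp3*, *Id4*, *Smurf1*, *Bmpr1a*, *Bmpr2* and *Id2* lie above the IHC mean in all 3 sets of iOHCs. *Id1*, *Id3*, *Smad6*, *Chrdl1*, *Hey1*, *Gata2* and *Bmp6* lie below it in the 7 cells.

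Within the iOHCs, the pathway genes divided as the plot of iOHC sets shows. From the 23 cells with the lower marker sums to the 23 with the higher sums, mean CPM went from 14.2 to 126 for *Id1*, from 312 to 804 for *Id2*, from 71.0 to 188 for *Id3*, from 4.88 to 64.2 for *Hey1*, from 3.22 to 70.2 for *Gata2*, from 3.97 to 52.8 for *Chrdl1*, from 8.0 to 22.9 for *Smad6* and from 13.4 to 107 for *Tgfb2*. *Id4* was at 234 and 217, *Bmpr1a* at 69.5 and 81.8, *Bmpr2* at 95.2 and 80.01, and *Smurf1* at 88.7 and 70.6. With the lower 23 cells alone, the log2 ratio to P14_WT IHCs was 2.02 for *Id2*, 1.33 for *Id4*, 0.09 for *Id3* and -0.46 for *Id1*, and it was 1.48 for *Gata2*, 0.75 for *Hey1* and 0.06 for *Chrdl1*.

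The E proteins, with which Id proteins pair, were not over 4-fold different. *Tcf4* was counted in every cell of the 3 groups, at 149 ± 73.4 CPM in P14_WT IHCs and 184 ± 89.4 in iOHCs. *Tcf12* was found in 45 of 55 P14_WT IHCs at 49.7 ± 46.1 CPM and in 26 of 46 iOHCs at 22.8 ± 49.5 (log2 ratio -1.09), and *Tcf3* was at 12.2 ± 21.5 and 19.4 ± 32.6 CPM.

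Age was compared with the same P14_WT IHCs, so this comparison shares its control cells with the one above. Between P30_WT IHCs and P14_WT IHCs no member was over 4-fold higher or lower, where 1.25% and 1.48% of 15436 genes were. The 7 members past the filter all had a higher mean at P30, as had 7621 of all 15436 genes past the filter. The median log2 ratio of the 7 was 0.59, against -0.01 over all genes. Among cells of lower depth the ratio was -0.95 for *Bmp7* and -0.0046 for *Id3*. The others ran there from 0.04 for *Bmpr1a* to 1.73 for *Id1*. Among cells of higher depth all 7 were above 0, from 0.36 for *Bmpr2* to 1.39 for *Id1*. Without the highest P30 cell the *Bmp7* ratio of 0.71 came to 0.05. *Id1* had the highest of the 7 ratios over all cells, 1.40. Its CPM at P30 was 0, 40.9 and 198 (lowest, median, highest) with a mean of 53.7 ± 53 CPM, and it was counted in 41 of 50 cells. Of the 50 cells, 35 lay above the P14 median and 14 above the highest P14_WT IHC. By medians over cells the *Id1* ratio was 3.60, past 4-fold. *Id2* was at 138 ± 147 CPM (log2 ratio 0.85), *Id4* at 140 ± 68.7 (0.59) and *Id3* at 73.7 ± 66.8 (0.15). The *Id4* ratio was 0.09 among cells of lower depth and 0.88 among cells of higher depth, and 23 of 50 P30 cells but 16 of 55 P14 cells were of lower depth. The summed supporting cell markers had a rho of -0.14 to 0.13 with the 4 Id genes among P30_WT IHCs.

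Of the 95 pathway genes, 47 passed the filter in the comparison of ages, 1 was over 4-fold higher at P30 and 1 over 4-fold lower. Over all genes past the filter these shares were 1.25% and 1.48%. *Bmper* was the higher one, at 35.5 ± 54.7 CPM at P14 and 150 ± 132 at P30 (log2 ratio 2.05, and 1.96 without the highest P30 cell or, among cells of lower depth, 1.92), with a count in 40 of 55 and 47 of 50 cells. *Bambi*, a decoy receptor, was found in 6 of 55 P14 cells at 3.23 ± 12.0 CPM and in 0 of 50 P30 cells, which allows up to 6%. Its log2 ratio of -2.08 came to -1.66 without the highest P14 cell, and it was past 4-fold under 6 of 10 alternatives. *Tcf4* was at 271 ± 134 CPM at P30.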

How the data were processed

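Members, gene lists and marker lists were chosen with earlier results of these data known. Per the labels and the submitters' processing notes, the authors amplified cDNA of single picked cells with Smart-Seq HT, trimmed reads with Trimmomatic 0.39 after FastQC 0.11.9, aligned them to GRCm38 (mm10) with HISAT2 2.1.0 and counted reads per gene with HTSeq 0.10.0. StringTie 1.3.5 is also named. The deposited values are raw counts of 55291 genes in 151 cells, with no identical libraries. Annotation release, strand setting and handling of multiply aligned reads are not given in the sources used here.

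CPM was the count over the cell's total times 1000000. TPM used union exon lengths of GENCODE M21, found for 53186 genes. Each group being 1 sample, no test was made. Groups were compared by the ratio of mean CPM, with 1 CPM added and a filter of at least 1 CPM in 1 group, and shares of cells above 0 were given exact (Clopper-Pearson) 95% intervals, with 3 over the number of cells as the limit for a share of 0. Rank correlations are Spearman's rho. Genes were named if they were members, over 4-fold in a pathway list, among the 3 highest of a list, or among the 5 closest to *Bmp3*. Promoters of 6 of the 9 members came from RefSeq tables; the others, and proteins, were not used here. Alternatives were TMM scaling (edgeR 4.0.16), DESeq2 1.42.0 size factors, other added values, filters and summaries over cells, thinned counts, cells by depth, and cells by supporting cell markers. The sets of 7 and 23 iOHCs and the removal of the highest cell were chosen after seeing the data. Python 3.11.15 and R 4.3.3 were used. The comparison was also run on simulated counts in which all genes had the same relative spread between cells. That setting does not cover sparse genes.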

Additional observations from a re-analysis of the deposited data

How the results depend on the processing

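Higher and lower in iOHCs, against 1056 and 463, there were 2155 and 1344 genes with 0.1 CPM added, 650 and 277 with a filter of 10 CPM, 660 and 1059 by medians over cells, 1595 and 1524 in cells of lower depth, and 698 and 798 in the 23 iOHCs with lower marker sums. Differences of mean log2(CPM + 1) gave 379 higher, and the 7 iOHCs with the lowest sums gave 2161 lower. Higher and lower at P30, against 193 and 229, there were 1034 and 1074 with 0.1 CPM added, 75 and 101 with a filter of 10 CPM, 767 and 903 in cells of lower and 438 and 445 in cells of higher depth. Medians gave 1161 lower, mean log2 values 35 higher, and leaving out the top quartile of cells by supporting cell markers 331 higher. The *Bmp3* log2 ratio was 9.84 with 0.1 CPM added and 5.18 to 7.42 under the other alternatives. DESeq2 size factors moved the median of all genes in iOHCs from 0.09 to 0.18. Signs of other members turned: over the alternatives the iOHC log2 ratio ran from -4.19 to 2.77 for *Id1*, from -1.18 to 1.26 for *Id3*, from -1.49 to 1.15 for *Bmp7* and from -0.16 to 1.20 for *Bmpr2*, while it stayed above 0 for *Id2* (2.02 to 4.09), *Id4* (1.07 to 1.58) and *Bmpr1a* (0.46 to 1.20). The cause was not tested. No paired analysis was possible because the numbers in the labels only name cells and no test was made. In the shallowest cell, with 4326416 counts, levels under 1 CPM rest on 4 or fewer reads.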
